A study of Mus musculus with 11 samples.

Results

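The comparison described here set 3 RNA-seq libraries of auxin-treated mouse embryonic stem cells that had received full-length CTCF (FL) against 2 libraries of auxin-treated cells labelled EV, the usual abbreviation of empty vector, which the labels do not spell out. The libraries were chosen by their labels and are 5 of the 11 libraries in the series, and 16420 of the 55228 gene symbols in the count table passed the filter on low counts and were tested. Every library came from EN52.9.1 (CTCF-AID), a single clonal line in which the endogenous CTCF protein carries an auxin-inducible degron, grown in serum with leukaemia inhibitory factor (LIF). Auxin-treated cells received 500 µM of the auxin indole-3-acetic acid. The 4 groups were EV untreated (3 libraries, no auxin, endogenous CTCF present), EV auxin (2 libraries, endogenous CTCF degraded), FL auxin (3 libraries, endogenous CTCF degraded and full-length CTCF reintroduced) and H373R auxin (3 libraries, endogenous CTCF degraded and the H373R form reintroduced, with titles that carry the name ZF4). The degron-carrying CTCF was therefore shared by all groups, and auxin by all but EV untreated. A further EV auxin replicate and auxin-treated cells without the degron were not analysed here, so an effect of auxin itself and an effect of CTCF loss cannot be told apart in EV auxin against EV untreated. FL auxin against EV auxin holds auxin constant on both sides. No group holds FL cells without auxin. A lasting difference between FL and EV cells and an effect of the reintroduced CTCF therefore cannot be told apart.

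CTCF is a DNA-binding protein with an array of zinc fingers that recognises a GC-rich sequence and halts the ring-shaped cohesin complex as it extrudes chromatin loops. It separates neighbouring regulatory domains, and it also sits at many promoters close to the transcription start, where it is known to bring distant enhancers to the gene. The clustered protocadherins, cell surface proteins that give neurons their identity, are a classic set of genes whose promoters it serves.

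Total counts ran from 13465241 to 29902246 per library, and the FL auxin replicate 2 had the lowest. Pairs of libraries were compared by a chi-square statistic of their counts per degree of freedom, which is near 1 for libraries that differ by sampling noise alone. It was 2.68 for the EV auxin pair, 2.96 to 5.06 within FL auxin, and 15.9 and 14.9 for EV untreated replicate 1 against the others of its group, which were themselves at 1.96, so no 2 libraries were counted as 1 and EV untreated replicate 1 stood apart. The labels do not say that replicates came from separate cultures, so p-values measure the spread between these libraries, which may be technical. The Ctcf transcript stood at 294, 344 and 339 CPM (counts scaled to library size) in EV untreated, 364 and 359 in EV auxin and 328, 333 and 350 in FL auxin. Whether reads of the reintroduced copy were counted under this symbol was not tested. The log2 fold change of Ctcf in FL against EV auxin was -0.10 ± 0.06 (SE), with an adjusted p of 0.28 in edgeR's quasi-likelihood test. Ctcf was therefore not called, although every FL library lay below the EV auxin pair. The CTCF protein was not measured, and auxin acts on it.

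Many genes differed between FL and EV auxin, most of them by small amounts. Of the 16420 genes tested, 4016 (24.5%) were called in FL against EV auxin at an adjusted p under 0.05, 1816 of them higher (11.1%) and 2200 lower (13.4%). The median size of a called log2 change was 0.38, and 395 genes (2.41%) changed at least 2-fold, 182 upward and 213 downward. In all 4016 the FL and EV auxin libraries did not overlap, which was also so for 53.9% of all tested genes. The number of calls leaned on the pair of EV auxin libraries: it was 2186 without EV auxin replicate 1 and 1879 without EV auxin replicate 2. On the deposited TPM values (transcript abundance scaled to gene length), limma called 1041 genes higher and 2665 lower, so that 28.1% of calls were higher, against 45.2% on counts.

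**Figure D1:**
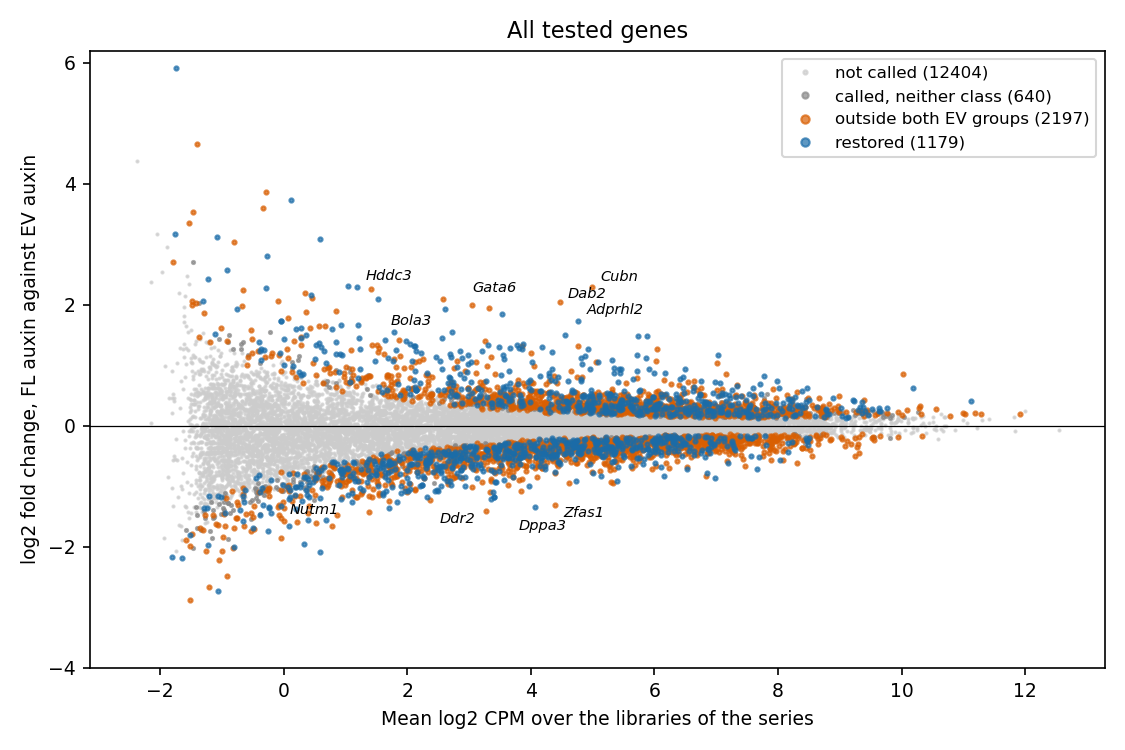
Log2 fold change of FL auxin against EV auxin (vertical axis) against mean log2 CPM over all libraries (horizontal axis), 1 point per tested gene. Colours separate genes that were not called, restored genes, genes outside both EV groups and called genes in neither class; the 127 genes in both classes are drawn as restored. The 10 labelled genes are among the largest rises and falls at a mean log2 CPM of at least 1.

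The called genes were sorted by what auxin had done to them in EV cells. A gene was termed restored where EV auxin differed from EV untreated and FL auxin differed from EV auxin in the opposite direction. A gene was termed outside both EV groups where FL auxin differed from EV auxin and from EV untreated in the same direction. EV auxin against EV untreated called 3392 genes (20.7%), 11.3% of those tested higher and 9.4% lower, and FL auxin against EV untreated 6052 (36.9%), 17.7% higher and 19.2% lower. These comparisons share libraries, the EV auxin pair in particular, so a chance deviation of that pair enters restored genes on both sides.

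Restored genes numbered 1179 (7.18% of those tested), 544 higher in FL (3.31%) and 635 lower (3.87%). Of these, 765 were not called against EV untreated, 287 still fell short of it, and 127 went past it and so also belonged to the genes outside both EV groups. Genes outside both EV groups numbered 2324 (14.2%), 1033 higher (6.29%) and 1291 lower (7.86%), and 2003 of them were not called after auxin in EV cells. For genes outside both EV groups, a lasting difference between FL and EV cells cannot be told apart from an effect of full-length CTCF. A further 640 called genes were in neither class. The restored count was 605 without EV auxin replicate 1, 488 without EV auxin replicate 2 and 1823 without EV untreated replicate 1. The count outside both groups was 1349 and 1171 without the respective EV auxin library, and 3376 without EV untreated replicate 1.

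The 8 restored genes with the largest rises have varied roles, from protein and nucleotide metabolism to lipid secretion and the extracellular matrix. Promoters are shown first, because CTCF-like letters were more frequent in those of restored genes that rose than in those of all tested genes. The RefSeq promoter table (GRCm38.p6) holds 250 bases before to 50 after each annotated start. In the windows of 30 bases printed here, written 5′ to 3′ on the gene's strand, capitals mark the 12 letters that match a loose spelling of the core CTCF sequence: CC, 3 bases of any kind, AGG, 1 base of any kind and GGC. Adprhl2 (chr4:126321739-126321768, minus strand), Dph7 (chr2:24962364-24962393, plus strand) and Ube2cbp (chr9:86464954-86464983, minus strand) are the genes among the 8 largest restored rises whose window held a match. Rsad1 (chr11:94549279-94549308, minus strand) and Nudt17 (chr3:96708557-96708586, minus strand) were added after their values were seen, as restored genes that rose at least 2-fold.
Adprhl2: gactccgggCCACAAGGGGGCgctgtgggg
Dph7: gtcctccagCCTGTAGGCGGCgcagcgtct
Ube2cbp: gctctcttcCCGGTAGGTGGCgctctagcc
Rsad1: caacagtgtCCACCAGGTGGCgccgcagac
Nudt17: cgagctgggCCACCAGGGGGCgccaggcaa
The matches are centred at positions -50, -43, -52, -86 and -11 from the annotated start, in that order, and each reads in the direction of its gene. For context, the 250 bases before the Adprhl2 start (chr4:126321704-126321953, minus strand) carry the match near their downstream end.
Adprhl2 upstream: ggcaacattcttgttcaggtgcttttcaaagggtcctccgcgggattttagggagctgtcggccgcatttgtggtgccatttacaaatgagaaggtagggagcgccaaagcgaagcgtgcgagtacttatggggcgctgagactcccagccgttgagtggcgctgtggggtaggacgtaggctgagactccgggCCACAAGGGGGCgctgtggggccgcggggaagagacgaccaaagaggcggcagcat

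Adprhl2, an ADP-ribose hydrolase that removes ADP-ribose from serine residues, stood at 53.4, 42.8 and 43.1 CPM in EV untreated, at 10.8 and 10.7 in EV auxin and at 39.5, 31.8 and 35.7 in FL auxin. The FL libraries were all above the EV auxin pair and all below the EV untreated libraries. The log2 fold change in FL against EV auxin was 1.74 ± 0.12 (adjusted p = 1.82e-07), after a change of -2.11 with auxin in EV cells. Dph7, an enzyme of diphthamide synthesis on the elongation factor eEF2, followed the same course, with 27.7, 27.3 and 26.7 CPM in EV untreated, 4.11 and 4.73 in EV auxin and 16.1, 15.6 and 16.6 in FL auxin. Its log2 fold change was 1.86 ± 0.10 (adjusted p = 2.18e-08). Ube2cbp, which encodes a protein that binds an E2 ubiquitin-conjugating enzyme, went from 6.99, 5.78 and 5.36 CPM through 0.855 and 0.706 to 2.48, 2.81 and 2.19, a log2 change of 1.67 ± 0.27 (adjusted p = 0.00049). All of these remained below EV untreated, with log2 differences of -0.38, -0.75 and -1.30 in that order. Rsad1, a gene of the radical SAM family, stood at 2.05 and 2.37 CPM in EV auxin and 5.97, 4.94 and 6.02 in FL auxin, a log2 change of 1.35, and did not differ by the test from EV untreated (-0.23, adjusted p = 0.126).

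The windows of Hddc3, Bola3 and Apob held no match. Bola3, which helps insert iron-sulfur clusters into mitochondrial enzymes, had 15.8, 13.4 and 14.9 CPM in EV untreated, 1.82 and 2.20 in EV auxin and 8.88, 7.14 and 7.24 in FL auxin, a log2 change of 1.94 ± 0.16 (adjusted p = 1.57e-06). Hddc3, a metal-dependent phosphohydrolase that splits the alarmone ppGpp and NADPH, had 7.42, 5.63 and 5.95 CPM, then 0.456 and 0.913, then 3.96, 3.19 and 3.42, a log2 change of 2.30 ± 0.29 (adjusted p = 7.01e-05). FL libraries lay between the EV groups for both genes, without overlap with either. Apob, the apolipoprotein of secreted lipoproteins, Has2, a hyaluronan synthase, and Mmp9, a matrix metalloprotease, rose past the EV untreated level instead. Has2 stood at 2.70, 3.87 and 3.12 CPM in EV untreated, 1.31 and 0.955 in EV auxin and 4.29, 5.09 and 5.05 in FL auxin, with a log2 change of 2.10 ± 0.21 against EV auxin (adjusted p = 7.67e-06) and 0.59 against EV untreated (adjusted p = 0.00492). The log2 changes of Apob and Mmp9 against EV auxin were 2.32 ± 0.24 and 1.56 ± 0.19.

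**Figure D2:**
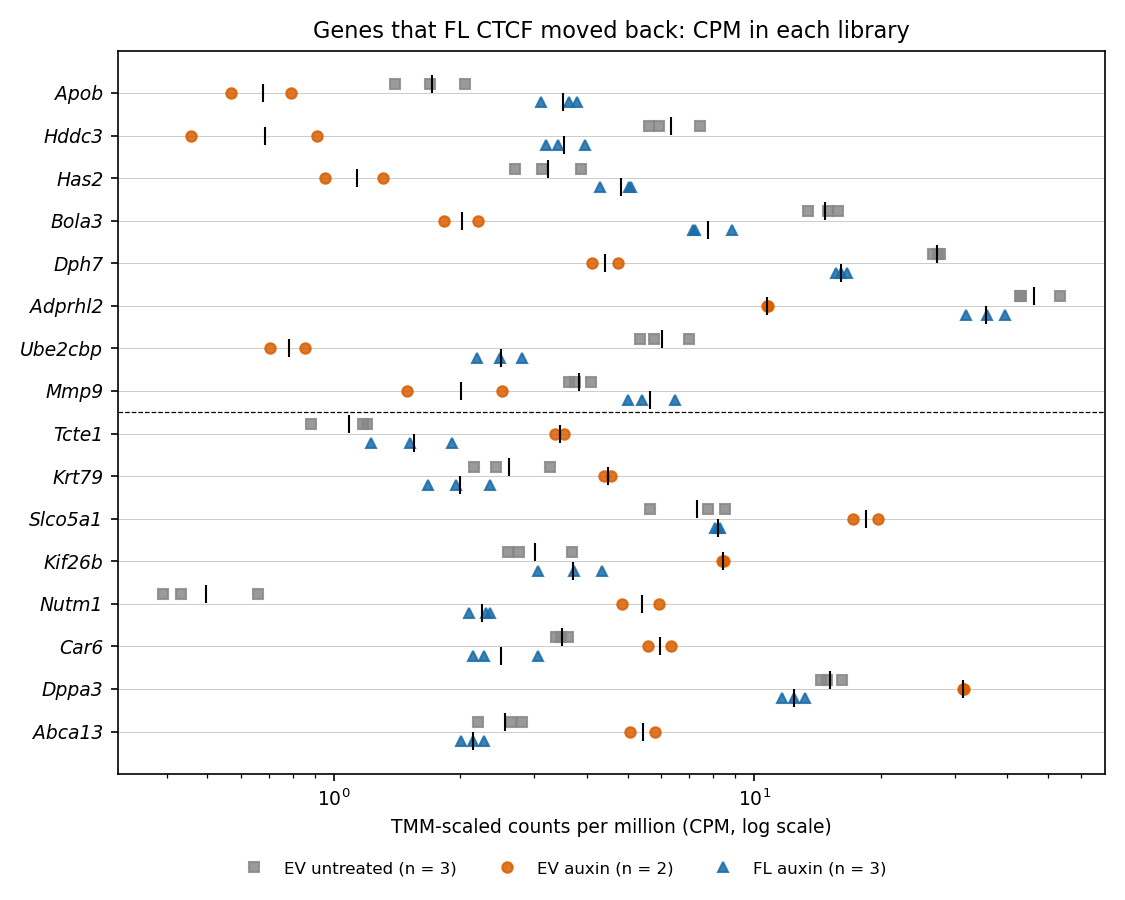
CPM on a log axis for the 8 restored genes with the largest rises and the 8 with the largest falls, in EV untreated (3 libraries), EV auxin (2) and FL auxin (3); points are libraries and ticks are group means. In each gene the FL auxin libraries lie apart from the EV auxin pair, on the side of EV untreated.

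Among all restored genes that rose and had a promoter in the table, 65 of 416 (15.6%) held this 12-letter spelling on either strand, against 766 of 11769 tested genes (6.51%). For restored genes that fell the share was 6.8%, for genes outside both groups 6.78% (higher) and 5.99% (lower), and for genes that fell after auxin and were not called in FL 9.84%. A looser spelling (CC, 3 free bases, AG, 2 free bases, GGC) was in 27.9% of restored rises and 14.8% of all, and a tighter one (CCA, 2 free bases, AGGGGGC) in 2.64% and 0.629%. Each tighter spelling is contained in the looser, and the middle spelling was chosen after the shares of several had been seen. Among the restored rises 74 such sites were found, with a median position of -73.5 and 70.3% of them within 100 bases of the start, against -80 and 60% for 838 sites over all tested genes. A run of 4 tracts of at least 3 G with 1 to 7 bases between them, the letters of a G-quadruplex, was in 34.9% of restored rises and 31.9% of all. It was in 16.4% of the 67 promoter-matched restored genes that rose at least 2-fold, and in 37.1% of rises outside both groups. Mean promoter GC content was 61.6% for restored rises and 60.8% for all. A match is a description of letters and not a site of binding, and its absence says only that these letters are not in this window.

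The 8 restored genes with the largest falls also have varied roles. Dppa3 (Stella), a maternal factor that protects DNA methylation in the early embryo, stood at 16.1, 14.9 and 14.4 CPM in EV untreated, 31.5 and 31.3 in EV auxin and 12.4, 13.2 and 11.6 in FL auxin. FL libraries lay below both other groups, and the log2 change against EV auxin was -1.35 ± 0.08 (adjusted p = 6.44e-08). Nutm1, a gene normally expressed in testis, stood at 0.433, 0.392 and 0.661 CPM in EV untreated, 5.93 and 4.86 in EV auxin and 2.10, 2.35 and 2.30 in FL auxin, a log2 change of -1.25 ± 0.18 (adjusted p = 0.000186) that left it 2.14 above EV untreated on the log2 scale. Slco5a1, a member of the organic anion transporter family, stood at 5.66, 7.78 and 8.52, then 17.2 and 19.7, then 8.21, 8.28 and 8.06 CPM, a log2 change of -1.18 ± 0.15 (adjusted p = 5.46e-05), with FL and EV untreated libraries overlapping. Abca13, an ABC lipid transporter, fell by 1.36 ± 0.15, Car6, a secreted carbonic anhydrase, by 1.26 ± 0.15, and Kif26b, a kinesin family member of Wnt5a signalling, by 1.18 ± 0.15 on the log2 scale. Krt79, a keratin, and Tcte1, a component of sperm flagella, both fell by 1.14.

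The clustered protocadherins formed the function list with the largest median change. Of 57 members listed by the authors' counts 16 were tested, since 13 had no count in any library and most others were too low. After auxin 13 of the 16 were lower and 0 higher in EV cells, with a median log2 change of -2.31. In FL against EV auxin 7 were higher and 0 lower, with a median of 1.89 beside a median of -0.01 over all tested genes. The filter on low counts used all 11 libraries, so members this low in EV auxin, such as Pcdhga11 and Pcdhgb7, entered through other groups. Both medians describe the members tested, and their size can in part come from that choice, which was not tested. Pcdhga11 stood at 3.995, 4.16 and 4.08 CPM in EV untreated, 0.171 and 0.415 in EV auxin (3 and 10 counts) and 2.58, 2.66 and 2.81 in FL auxin, a log2 change of 3.08 ± 0.26 (adjusted p = 1.83e-06). Pcdhgb7 stood at 0.342 and 0.166 CPM in EV auxin and 1.19, 1.52 and 0.969 in FL auxin, and overlapped with EV untreated at 1.03, 1.13 and 1.21. The C-type isoform gene Pcdhgc3 took another course: at 13.7 and 15.2 CPM in EV auxin it did not differ by the test from EV untreated, and it rose to 20.7, 22.6 and 20.2 in FL (0.54 ± 0.09, adjusted p = 0.000461). Against EV untreated, 8 of the 16 were still lower in FL and 1 higher. The gamma cluster genes share their last exons, so how the counting divided reads between them is uncertain, and on log2(TPM + 1), a scale that understates changes of low genes, only 2 of the list were called higher, with a median of 0.45.

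Some of the p53 target genes, which halt the cell cycle or promote cell death, were restored, and most were not. Of 41 tested, 26 were lower and 2 higher after auxin in EV cells (median log2 change -0.41). In FL against EV auxin 10 were higher and 2 lower (median log2 change 0.09). The share of 24.4% higher stood beside 11.1% of all tested genes. Restored members numbered 8. Only a gene called after auxin can be restored, so the 7.18% restored of all tested genes is no like measure for this list. Of all tested genes, 1543 fell after auxin and 544 of them were restored. Cdkn1a, the cell cycle inhibitor p21, stood at 122, 110 and 109 CPM in EV untreated, 67.4 and 64.7 in EV auxin and 104, 95.7 and 95.9 in FL auxin, a log2 change of 0.58 ± 0.07 (adjusted p = 2.44e-05). FL libraries lay between the EV groups without overlap. Pmaip1, which encodes the death promoter Noxa, rose by 0.94 ± 0.08 and Perp, a desmosome protein, by 0.48 ± 0.06. Against EV untreated 28 of the 41 were lower in FL and 5 higher, with a median of -0.30. The count of 10 was 6 without either EV auxin library.

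More neural genes were lower than higher in FL among those called. Of 26 tested members of the neural ectoderm list, 2 were higher, 12 lower and 12 not called in FL against EV auxin. The median log2 change was -0.31, and the share of 46.2% lower stood beside 13.4% of all tested genes. The 12 became 6 and 5 without EV auxin replicates 1 and 2, and 7 without FL replicate 1. Dlx2, a forebrain homeobox gene, stood at 0.866, 0.734 and 0.734 CPM in EV untreated, 3.88 and 4.28 in EV auxin and 1.72, 2.28 and 1.99 in FL auxin (-1.06 ± 0.16, adjusted p = 0.000283). Elavl3, a neuronal RNA-binding protein, fell by 0.59 ± 0.10 to a level overlapping EV untreated. The 2 members that rose were transcription factors: Sox1, an early neural gene, went from 9.52 and 8.80 CPM in EV auxin to 23.4, 21.9 and 23.0 in FL, above EV untreated (10.6, 11.8 and 10.2), and Neurod1 from 3.99 and 4.44 to 8.73, 9.80 and 9.38, against 8.46, 9.10 and 8.89 in EV untreated. Members of this list therefore moved in both directions.

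Germline-class genes, which Dppa2 and Dppa4 or DNA demethylation are known to switch on in stem cells, also had more falls than rises. In this list 12 of 33 fell, 2 rose and 19 were not called in FL against EV auxin, with a median of -0.19. The share of 36.4% lower stood beside 13.4% of all tested genes, and 7 members fell without EV auxin replicate 2. Stra8, the gatekeeper of meiosis, stood at 73.0, 71.6 and 71.3 CPM in EV untreated, 106 and 96.4 in EV auxin and 55.4, 55.7 and 60.6 in FL auxin, a log2 change of -0.82 ± 0.07 (adjusted p = 8.36e-07). FL libraries lay below both EV groups. The homeobox gene Rhox6 fell by 0.91 ± 0.13, Xlr3a, an X-linked lymphocyte-regulated gene, by 0.95 ± 0.11, and Tex19.1, a repressor of transposable elements, by 0.45 ± 0.05.

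Interferon-stimulated genes gave an example of a call that rested on few libraries. Of 35 tested, 15 were higher and 4 lower after auxin in EV cells. In FL against EV auxin 8 were lower and 3 higher, with a median of -0.18. The share of 22.9% lower stood beside 13.4% of all tested genes. Ifi35, an interferon-induced regulator, stood at 6.79 and 7.43 CPM in EV auxin and 3.48, 5.24 and 4.69 in FL (-0.70 ± 0.16, adjusted p = 0.00567), and Irf1, a transcription factor of the response, at 39.7 and 40.2 against 34.8, 31.4 and 32.8 (-0.27 ± 0.07, adjusted p = 0.00748). Both lie on chromosome 11, which was lower as a body in FL, and 4 of the 8 falls were on chromosomes other than 8 and 11. With chromosome medians removed, 5 were lower. Gbp2, a guanylate-binding protein, rose from 2.57 and 3.03 to 4.49, 5.32 and 5.56 CPM. The 8 lower calls were 4 without EV auxin replicate 1, 0 without EV auxin replicate 2 and 5 without FL replicate 1. Replication-dependent histones, 5 of 25 lower after auxin, had 3 higher calls in FL, and 0 without either EV auxin library. That share of 12% higher lay near the 11.1% of all tested genes.

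Of the 8 largest rises outside both EV groups at a mean log2 CPM of at least 1, Gata6, Pdgfra, Klb and Srgn belong to the list of primitive endoderm regulators, Cubn, Dab2 and Apob to that of visceral endoderm genes, and Has2, the hyaluronan synthase, to neither. The lists were chosen with earlier results of these data known, so this membership is a description and no independent support. The primitive endoderm is the extra-embryonic layer that lines the blastocyst cavity and later forms the yolk sac. Gata6, the transcription factor that sets this fate, stood at 4.19, 4.26 and 4.19 CPM in EV untreated, 4.28 and 4.69 in EV auxin and 17.9, 18.4 and 17.9 in FL auxin. FL libraries were about level with each other and far above both EV groups, which lay close together, and the log2 change against EV auxin was 2.00 ± 0.10 (adjusted p = 1.08e-08). Pdgfra, a growth factor receptor and surface marker of the layer, went from 3.02 and 2.91 to 12.1, 13.4 and 12.8 CPM (2.10 ± 0.14, adjusted p = 1.56e-07). Klb, the co-receptor beta-klotho of hormonal FGFs, went from 1.37 and 1.16 to 6.11, 5.85 and 6.02 CPM (2.26 ± 0.16, adjusted p = 2.36e-07). Srgn, a secreted granule proteoglycan, went from 4.28 and 6.18 to 19.6, 21.4 and 21.2 CPM (1.95 ± 0.15, adjusted p = 4.37e-07). In none of these 4 did EV auxin differ from EV untreated by the test.

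In the list of primitive endoderm regulators 12 of 22 genes rose and 2 fell in FL against EV auxin, with a median log2 change of 0.46. The share of 54.5% higher stood beside 11.1% of all tested genes. In this list 14 genes lay outside both EV groups while 0 were restored, against 14.2% and 7.18% of all tested genes. The call counts were stable, with 11 to 13 rises when any EV or FL library was left out. Of the 8 marker genes fixed for this cell type, 7 rose, among them Gata4 (7.81 and 8.47 to 17.9, 17.6 and 18.4 CPM, 1.14 ± 0.10), Sox17 (1.34 ± 0.18), Sox7 (1.19 ± 0.20) and Foxa2 (1.59 ± 0.36), while Hnf4a, a regulator of the later visceral endoderm and liver, fell by 0.35 ± 0.11. Their summed TPM was 25.9 to 26.9 in EV untreated, 30.1 to 30.4 in EV auxin and 69.0 to 75.0 in FL auxin. In bulk RNA, more cells of a type and more RNA per cell cannot be told apart, and fewer cells and less RNA per cell likewise.

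Genes of uptake and lipoprotein secretion in the visceral endoderm, which grows out of the primitive endoderm, rose along with them. Of 23 tested, 10 rose (43.5%, against 11.1% of all tested genes) and 0 fell, with a median log2 change of 0.45. The 10 were 8 and 7 without EV auxin replicates 1 and 2. Cubn, the endocytic receptor cubilin, stood at 15.1, 19.8 and 20.5 CPM in EV untreated, 13.3 and 16.1 in EV auxin and 64.4, 76.9 and 77.2 in FL auxin (2.29 ± 0.14, adjusted p = 1.03e-07). Its partners in endocytosis followed: the adaptor Dab2 went from 11.01 and 11.5 to 41.5, 49.0 and 50.1 CPM (2.05 ± 0.13), and the receptor megalin, Lrp2, from 43.5 and 47.7 to 92.4, 95.8 and 100.96 CPM (1.08 ± 0.11). The FL libraries of these 3 genes overlapped with neither EV group. The defining secretory products of the tissue remained scarce. Ttr, transthyretin, had 1 and 0 counts in EV auxin and 17, 9 and 14 in FL, and Afp, alpha-fetoprotein, 0 and 2 counts against 16, 8 and 9, both named after their values were seen.

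Basement membrane genes, whose products the primitive endoderm secretes in quantity, rose without exception among the calls. Of 34 tested, 16 were higher (47.1%, against 11.1% of all tested genes) and 0 lower, with a median of 0.25. The 16 were 11 and 12 without EV auxin replicates 1 and 2. Lama1, a laminin chain, stood at 84.4 and 88.8 CPM in EV auxin and 206, 191 and 192 in FL (1.18 ± 0.08, adjusted p = 1.2e-07), and had been lower in EV auxin than in EV untreated (-0.34, adjusted p = 0.00429). The collagen IV chains Col4a1 and Col4a2 rose by 1.04 ± 0.08 and 1.26 ± 0.11, and the laminin chain Lamb1 by 0.62 ± 0.06, all with FL libraries above every EV library. Col3a1, a fibrillar collagen of fibroblasts, rose by 1.65 ± 0.25 from 0.855 and 1.20 CPM. Fn1, fibronectin (0.15, adjusted p = 0.092), and Sparc, a collagen-binding glycoprotein (-0.00, adjusted p = 0.98), did not pass the test.

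Lysosome genes rose in similar breadth, 19 of 34 higher and 2 lower, with a median of 0.21. The share of 55.9% higher stood beside 11.1% of all tested genes, and 12 members were higher without EV auxin replicate 1. The cathepsins, proteases of the lysosome, led them. Ctsc stood at 10.8 and 10.6 CPM in EV auxin and 23.1, 24.5 and 26.8 in FL (1.21 ± 0.11, adjusted p = 4.34e-06), Ctsl rose by 0.50 ± 0.05 and Ctsb by 0.32 ± 0.05. Ctsh, low at 0.855 and 0.830 CPM in EV auxin, rose by 1.67 ± 0.20 to 2.77, 2.35 and 2.86. Lamp1, the abundant membrane protein (-0.01, adjusted p = 0.942), and Psap, prosaposin (0.00, adjusted p = 0.98), did not pass the test.

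**Figure D3:**
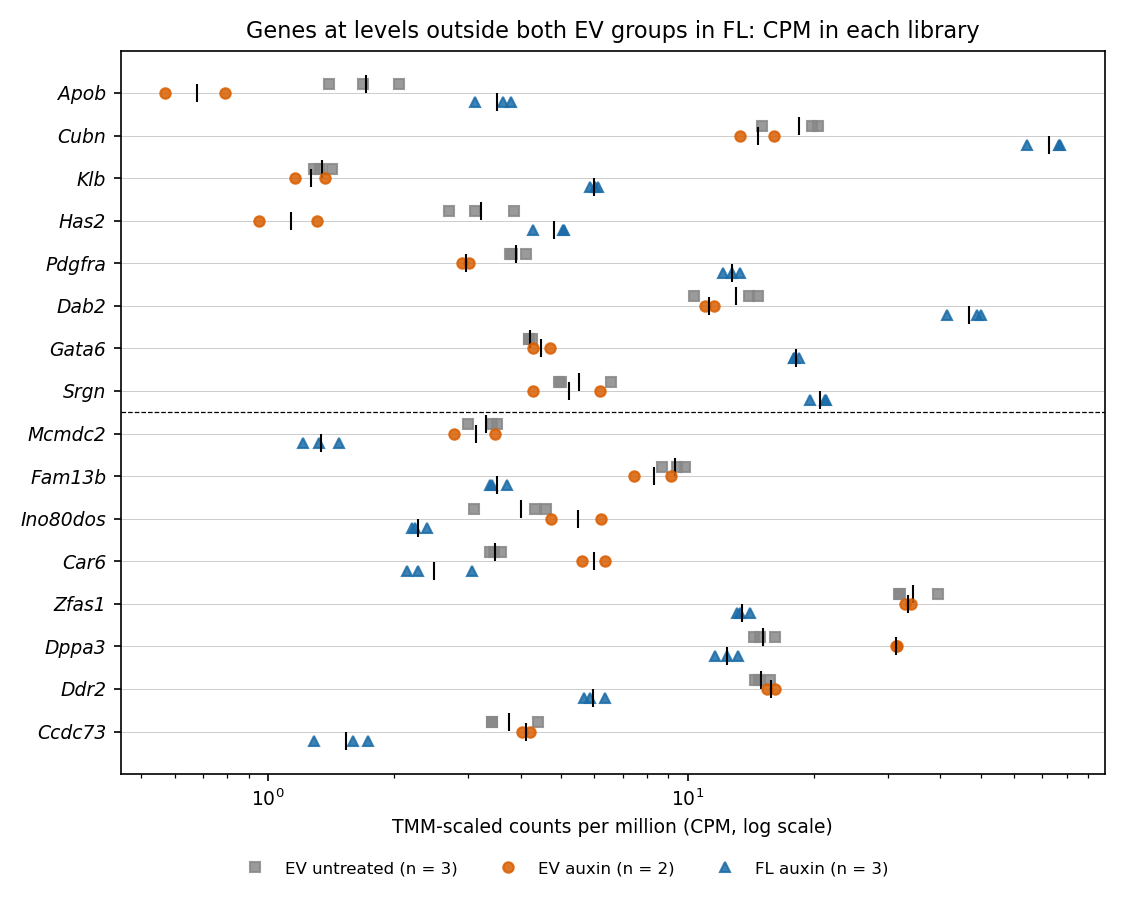
CPM on a log axis for the 8 largest rises and 8 largest falls among genes outside both EV groups, in EV untreated (3 libraries), EV auxin (2) and FL auxin (3); points are libraries and ticks are group means. In each gene the FL auxin libraries lie beyond both EV groups, and Dppa3, Car6, Apob and Has2 are also restored genes.

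Several genes of the FGF-ERK and Nodal pathways rose in FL, and fewer fell. FGF signalling through ERK is known to move stem cells toward primitive endoderm and toward exit from the naive state, and its own inhibitors are among its targets. Of 29 genes in that list 14 were higher and 3 lower (median 0.24), 48.3% higher against 11.1% of all tested genes. The 14 were 12 and 10 without EV auxin replicates 1 and 2. Dusp6, a phosphatase that switches ERK off, stood at 30.5, 29.9 and 31.3 CPM in EV untreated, 25.0 and 24.6 in EV auxin and 52.3, 52.9 and 48.4 in FL auxin (1.05 ± 0.07, adjusted p = 1.2e-07). Spry4, another feedback inhibitor, rose from 102 and 104 to 145, 147 and 146 CPM (0.51 ± 0.05), and the ligand Fgf4 from 150 and 149 to 206, 214 and 209, a level overlapping EV untreated (209, 228 and 227). Egr1, a transcription factor gene, fell from 14.7 and 14.3 to 8.45, 8.66 and 8.52 CPM (-0.76 ± 0.09), below every EV library. Fosb fell by 0.89 ± 0.29, from 19 and 33 counts in EV auxin to 17, 7 and 12 in FL. Both were named after their values were seen. In the Nodal list 9 of 21 rose and 2 fell (median 0.15), 42.9% higher against 11.1% of all tested genes. The 9 were 6 without either EV auxin library. The lowest log2 change in that list was -1.17. Pcsk6, the convertase that activates Nodal, went from 66.8 and 71.6 to 114, 110 and 108 CPM (0.68 ± 0.06, adjusted p = 2.6e-06), and the feedback genes Pmepa1 and Smad7 both rose by 0.43.

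Pluripotency genes showed no common direction. Of 20 naive factors 8 rose and 5 fell (5 rose without EV auxin replicate 1), and of 16 core factors 5 rose and 3 fell (2 rose without either EV auxin library and without FL replicate 1, and 3 without FL replicate 2 or 3). Pou5f1, which encodes Oct4, stood at 1033 and 953 CPM in EV auxin and 1067, 1016 and 1072 in FL, overlapping (0.08, adjusted p = 0.235). Nanog, a marker fixed for these cells, fell from 693 and 667 to 530, 541 and 534 CPM (-0.35 ± 0.06, adjusted p = 0.00107), below EV untreated (648, 773 and 753), and Zfp42 (Rex1) by 0.30 ± 0.05. Gbx2, a LIF target, rose by 0.82 ± 0.12. Among formative and primed genes, which come on as naive cells progress, 11 of 23 rose and 3 fell (median 0.33). The share of 47.8% higher stood beside 11.1% of all tested genes. There were 6 rises without either EV auxin library and 7 without FL replicate 1 or 3. Fgf15 and Dnmt3a, a growth factor and a de novo DNA methyltransferase, rose by 0.55 ± 0.06 and 0.33 ± 0.05, and Zic2, a zinc finger factor, fell by 0.62 ± 0.06.

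Markers of other cell types moved with the groups, and their part in the results was not tested. Fibroblast or feeder markers summed to 65.1 to 71.5 TPM in EV auxin and 81.2 to 91.5 in FL, with Col1a1, Col3a1 and Thy1 higher of 5 tested. Neural markers fell from 418 to 431 TPM to 307 to 353 (Sox1 higher, and Pax6, Tubb3 and Nes lower, of 5 tested), and trophoblast markers from 117 to 120 to 93.8 to 104 (Cdx2 and Eomes higher and Tfap2c lower of 4 tested, with Tpbpa at 0). Mesendoderm markers were at 17.8 to 17.9 and 18.8 to 24.0 TPM, with T, Eomes and Lhx1 higher of 7 tested. Markers of 2-cell-like cells were at 9.32 to 9.67 and 6.22 to 6.94 TPM, with 0 of 4 tested called by edgeR in either direction and Tcstv1 at 0. The 8 pluripotent markers summed to 10278 to 10542 TPM in EV auxin and 11092 to 11407 in FL, so the labelled cell type was borne by its markers in both groups. Sox2, Esrrb, Sall4, Dppa5a and Utf1 were higher, and Nanog and Zfp42 lower. Dppa5a alone held 3690.1 and 3471.5 TPM of the sum in EV auxin and 4488.6, 4910.7 and 4472.3 in FL.

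The largest falls outside both EV groups were of genes of mixed roles, among them Zfas1 of the list of transcripts that host small nucleolar RNAs (snoRNAs). Zfas1, a non-coding host of snoRNAs, stood at 39.6, 32.0 and 31.8 CPM in EV untreated, 34.0 and 32.9 in EV auxin and 14.1, 13.1 and 13.3 in FL auxin (-1.30 ± 0.11, adjusted p = 1.57e-06). The EV groups overlapped and the FL libraries lay well below. In the host list 8 of 22 fell and 1 rose (median -0.31), with 8 falls without any single EV auxin or FL library. The share of 36.4% lower stood beside 13.4% of all tested genes. Snhg16 fell from 18.1 and 20.5 to 8.68, 9.26 and 9.59 CPM (-1.08 ± 0.12), Snhg1 by 0.69 ± 0.07 and Snhg5 by 0.55 ± 0.06. Snhg17, named after its values were seen, was the member that rose (0.89 ± 0.15), from 3.48 and 4.52 CPM toward an EV untreated level of 26.4, 22.0 and 21.5.

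Ddr2, a collagen receptor kinase, fell from 16.1 and 15.5 CPM in EV auxin to 5.68, 5.85 and 6.37 in FL (-1.40 ± 0.09, adjusted p = 1.7e-07), against 14.4, 14.8 and 15.7 in EV untreated. Fam13b fell from 9.12 and 7.47 to 3.39, 3.42 and 3.72 CPM (-1.22 ± 0.13, adjusted p = 1.46e-05), against 9.45, 8.71 and 9.88 in EV untreated. For both genes the FL libraries were less than every EV library. Ccdc73, a coiled-coil protein gene, Ino80dos, an antisense transcript beside the chromatin remodeller Ino80d, and Mcmdc2, a meiotic relative of the MCM helicases, fell by 1.43 ± 0.22, 1.24 ± 0.21 and 1.18 ± 0.19. The strand setting of the counting is not given in the sources used here, so reads of Ino80dos and of its neighbour may not be told apart.

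Genes that build chromosome loops with CTCF were called at a share near that of all genes. Of 24 tested members of the CTCF and cohesin list 1 rose and 4 fell in FL against EV auxin, 20.8% against the 24.5% of all tested genes. The 4 falls were 1 and 2 without EV auxin replicates 1 and 2. The cohesin loader genes Nipbl and Mau2 fell by 0.42 and 0.29, the meiotic subunit gene Smc1b by 0.42 and the regulator gene Pds5b by 0.29. The core subunit genes Smc3 (-0.04, adjusted p = 0.69) and Rad21 (-0.01, adjusted p = 0.91) did not pass the test. Of 18 helicase genes that act on G-quadruplexes 0 rose and 3 fell by edgeR's test, Pif1 by 0.34, Brip1, on chromosome 11, by 0.32 and Atrx by 0.35. That share of 16.7% lower lay near the 13.4% of all tested genes. The 3 falls were 1 without either EV auxin library, 2 without FL replicate 1 and 6 without EV untreated replicate 1, and the sign of the list's median depended on the setting.

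In 4 lists of metabolism and growth the called genes were mostly higher in FL, by small amounts. The share higher was 41% for glycolysis and hypoxia, 27.8% for ribosomal proteins, 21.4% for oxidative phosphorylation and 30.8% for cholesterol synthesis. Over all tested genes it was 11.1%. Of 39 glycolysis and hypoxia genes 16 rose and 6 fell (median 0.15), with 10 and 8 rises without EV auxin replicates 1 and 2. Slc2a1, the main glucose transporter, stood at 1304, 1245 and 1188 CPM in EV untreated, 864 and 868 in EV auxin and 1400, 1327 and 1296 in FL (0.63 ± 0.05, adjusted p = 1.25e-06), and Slc2a3 rose by 0.41. Of 90 cytosolic ribosomal protein genes 25 rose and 1 fell (median 0.18), with Rplp0 going from 578 and 529 to 744, 748 and 695 CPM (0.40 ± 0.06). That count ran from 3 rises without EV auxin replicate 2 to 57 without EV untreated replicate 1, and was 13, 7 and 42 without FL replicates 1, 2 and 3. Of 84 nuclear genes of oxidative phosphorylation 18 rose and 1 fell (median 0.14), with rises running from 7 without EV auxin replicate 2 to 42 without EV untreated replicate 1, and with 10 without EV auxin replicate 1 and 11 without FL replicate 1 or 2. Of 26 genes of cholesterol synthesis 8 rose and 0 fell, with 4 and 3 without EV auxin replicates 1 and 2, 3 and 5 without FL replicates 1 and 2, and 13 without EV untreated replicate 1. The 8 tested mitochondrially encoded genes had 0 calls by edgeR.

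**Figure D4:**
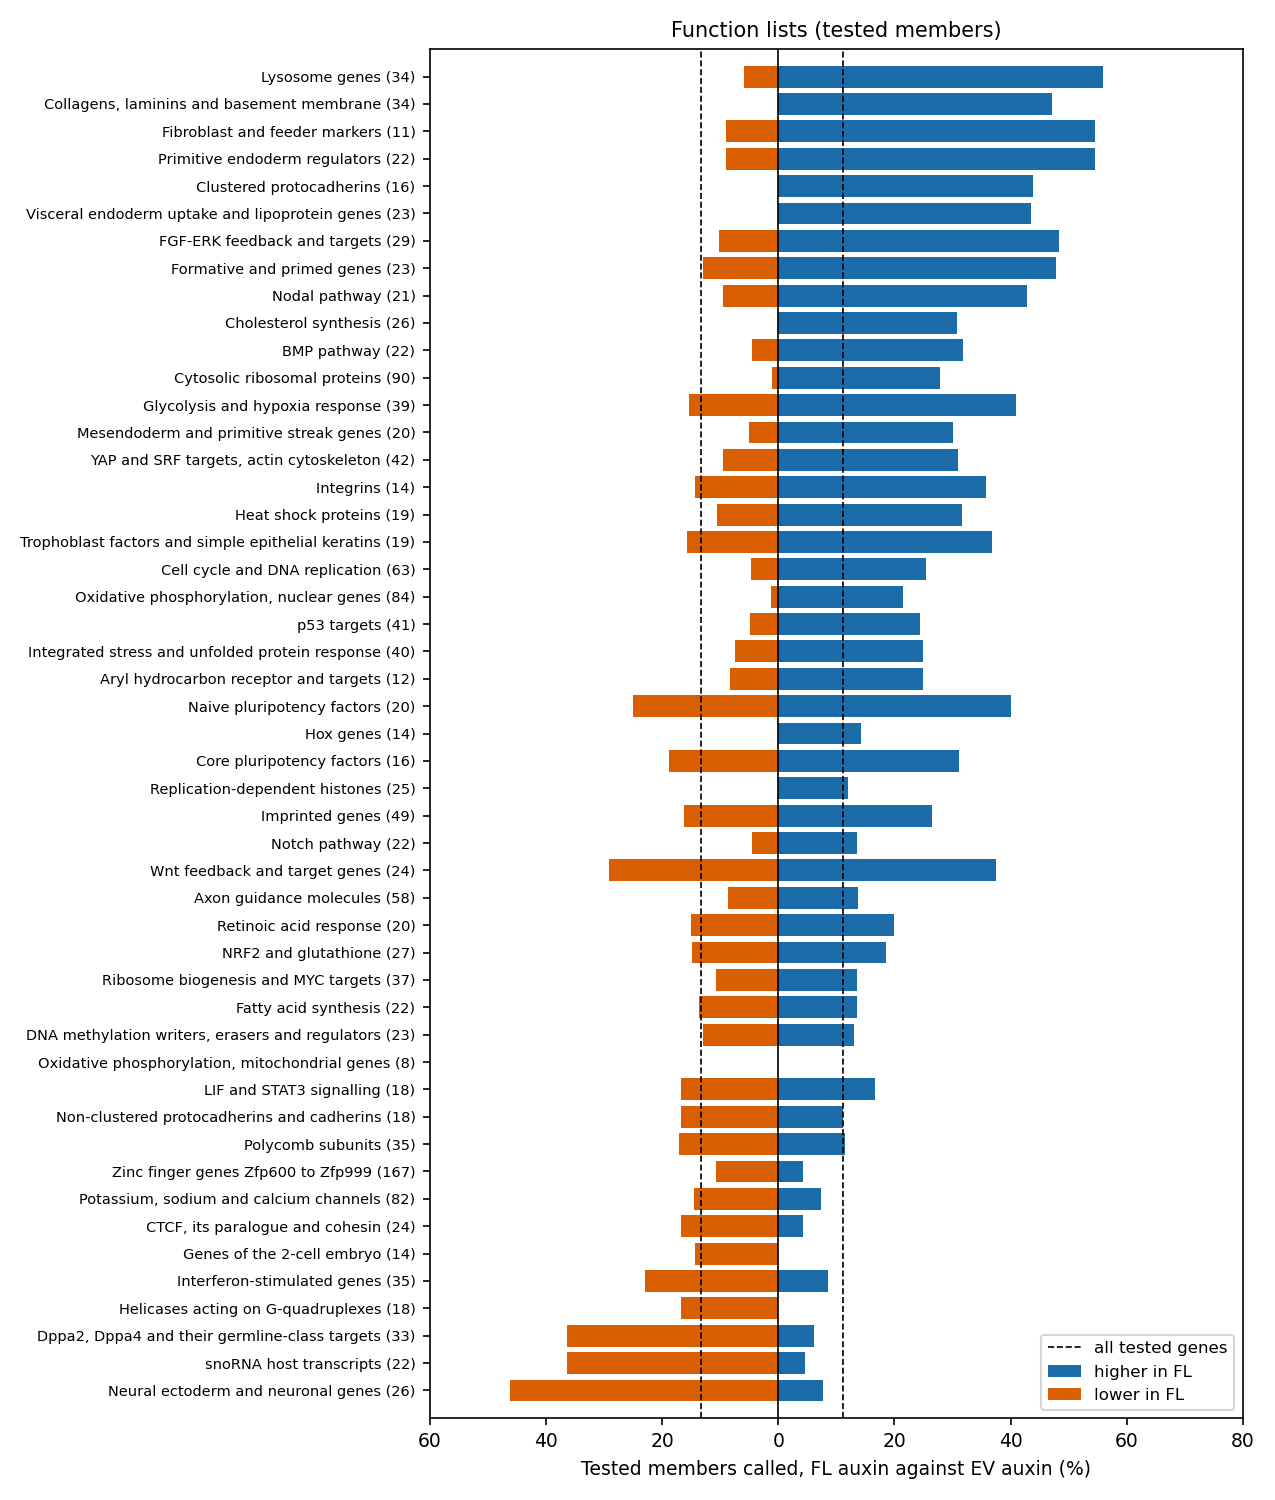
Share of tested members called higher and lower in FL auxin against EV auxin (percent, horizontal axis) for the function lists (vertical axis). Dashed lines mark the shares over all tested genes, 11.1% higher and 13.4% lower.

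Genes of chromosomes 8 and 11 were lower in FL as a body. On chromosome 11, 399 of 1339 tested genes were lower (29.8%) and 48 higher (3.58%), with a median log2 change of -0.16. On chromosome 8, 211 of 868 were lower (24.3%) and 40 higher (4.61%), with a median of -0.12. The medians of the other 18 chromosomes ran from -0.05 to 0.08, with chromosome 7 at the upper end (236 of 1302 genes higher, 79 lower) and chromosome 1 at the lower (77 higher, 180 lower). Each FL library showed it: the chromosome 11 median lay -0.14, -0.17 and -0.17 from the EV auxin mean on the log2 scale, and the chromosome 8 median -0.10, -0.13 and -0.13. The EV auxin pair lay within 0.01 of its mean on both, EV untreated between -0.06 and 0.02, and H373R auxin at -0.11 in all 3 libraries on chromosome 11 and between -0.08 and -0.07 on chromosome 8. Away from these 2 chromosomes, 1728 of 14213 genes were higher (12.2%) and 1590 lower (11.2%).

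With the median of each chromosome removed from each library, an alternative chosen after seeing the data, 3789 genes were called, 1910 higher and 1879 lower. Restored genes then numbered 1197 and genes outside both groups 2117. The Col4a1 and Col4a2 rises lie on chromosome 8, against the direction of that chromosome. Of the germline-class list 3 of 33 lie on these chromosomes, and 11 of the 12 falls were on others. In the interferon list it was 4 of 8, and in the neural list 11 of 12. The chromosome medians are a shift shared by many genes, and its part in the single calls on chromosomes 8 and 11 was otherwise not tested. DNA copy number was not measured, so a difference in chromosome number between FL and EV cells and a change in transcription cannot be told apart on these chromosomes.

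**Figure D5:**
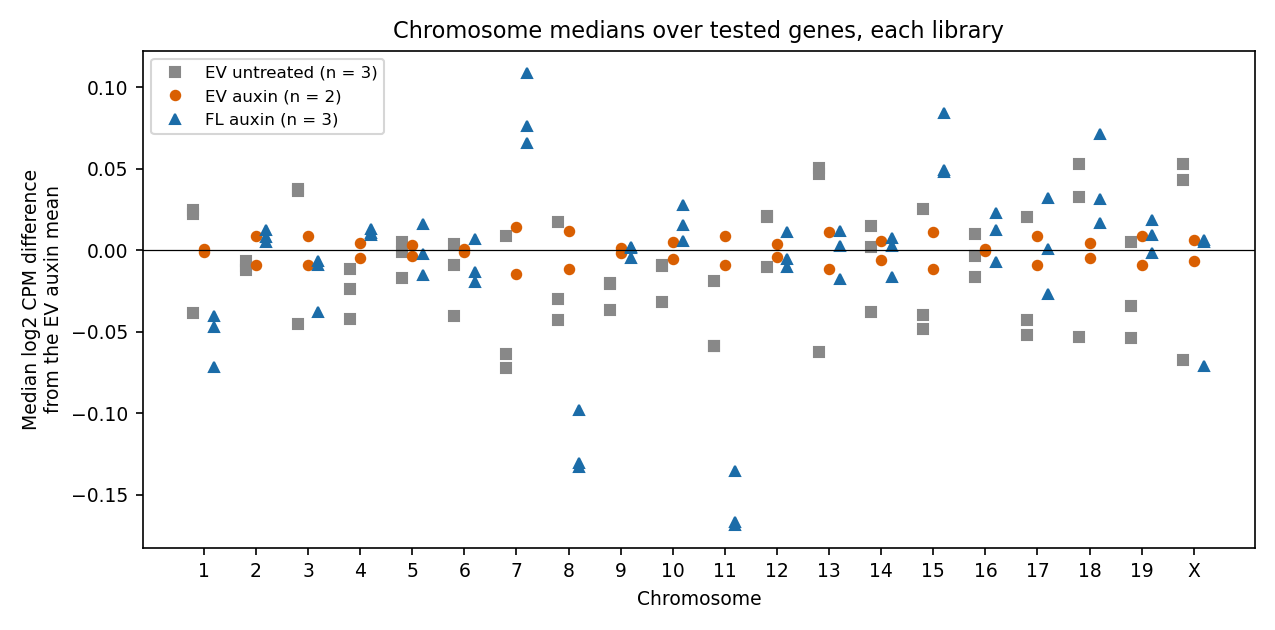
Median log2 CPM difference from the EV auxin mean (vertical axis) for each chromosome (horizontal axis). Each library of EV untreated, EV auxin and FL auxin is 1 point. The FL auxin libraries lie below both EV groups on chromosomes 8 and 11.

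The H373R form, named for its changed residue, was tested against full-length CTCF directly. The labels give no more on it than the residue and the name ZF4. H373R auxin differed from FL auxin at 979 genes (5.96%), 3.14% of those tested higher and 2.82% lower, and the 2 comparisons share the FL libraries. Among the restored rises, H373R libraries were lower than FL for Dph7 (6.50, 6.42 and 6.96 CPM, log2 difference -1.28, adjusted p = 3.23e-07), Hddc3 (1.16, 0.660 and 1.27 CPM, -1.76, adjusted p = 0.000268), Bola3 (-0.99, adjusted p = 0.000174) and Adprhl2 (22.5, 23.1 and 22.3 CPM, -0.67, adjusted p = 0.000483). Apob did not pass the test (-0.45, adjusted p = 0.116). Of the clustered protocadherins 0 of 16 were higher and 5 lower than in FL.

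Some primitive endoderm genes were also lower with H373R than with full-length CTCF. In the regulator list 8 of 22 were lower, 0 higher and 14 not called, with Gata6 at 10.2, 10.8 and 11.3 CPM (-0.74, adjusted p = 2.31e-05), and the summed TPM of the 8 markers was 47.7 to 53.1, between the EV auxin and FL ranges. Cubn differed by -0.86 (adjusted p = 0.000256) and Dusp6, at 29.3, 30.9 and 31.5 CPM, by -0.74 (adjusted p = 1.59e-06). Of the basement membrane list 7 of 34 were lower and 0 higher, and of the FGF-ERK list 8 of 29 lower and 1 higher. Of the falls named above, Zfas1 (14.1, 12.6 and 16.0 CPM, 0.08, adjusted p = 0.738), Ddr2 (0.23, adjusted p = 0.183) and Fam13b (-0.28, adjusted p = 0.282) did not pass the test, which does not show that they were equal. Among neural genes 6 of 26 were higher and 2 lower with H373R than with full-length CTCF.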

How the data were processed

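RNA-seq libraries were strand-specific, made from column-purified RNA and sequenced on an Illumina NovaSeq instrument, per the labels' protocols, which also say that degradation was ended by washing the cells. The authors deposited raw counts per gene symbol and TPM, which is scaled to gene length, for the same libraries. Per the submitters' processing notes, the tools were featureCounts of Subread 2.0.3 and DESeq2, and the build mm10 (GRCm38). The aligner, annotation and strand setting are not given in the sources used here. Of the tested symbols 98.9% matched GENCODE M21, used for chromosome, GC content and length. Promoters are those of RefSeq on GRCm38.p6.

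Libraries were grouped by their labels. The raw counts went into edgeR 4.0.16 (R 4.3.3): TMM scaling, filterByExpr, a group-means model over all 11 libraries, so that the EV auxin pair borrowed the spread of the others, the quasi-likelihood F test, and Benjamini-Hochberg adjustment over 16420 genes at 0.05. CPM values are TMM-scaled. Errors of log2 fold changes are standard errors. The common biological coefficient of variation was 0.0578. Genes without counts above 3 in a group are given as counts. Alternatives tried were upper quartile and RLE scaling, DESeq2 1.42.0, other filters, only the libraries compared, a replicate block, robust dispersion and stricter thresholds. Further ones were limma 3.58.1 on log2(TPM + 1) or log2(TPM + 0.1), removal of GC and length trends and thinning to the smallest total. Each EV and FL library was also left out in turn, the H373R libraries were left out together, and chromosome medians were removed. The procedure was tested on simulated data.

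Named genes are Ctcf, the 12 largest rises and 12 largest falls, the 8 largest in each direction among restored genes and among genes outside both EV groups (adjusted p under 0.05, mean log2 CPM of at least 1, no overlap of the groups, no gene models), and in each of 49 function lists up to 4 called members with the smallest adjusted p and up to 2 abundant members not called. Cell type markers are from a separate list. Other genes were named after their values were seen, namely Ttr, Afp, Snhg17, Rsad1, Nudt17, Efhc2, Egr1 and Fosb. The comparison, the lists and the rule were chosen with earlier results of these data known.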

Additional observations from a re-analysis of the deposited data

Results flagged for a closer look

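A few genes moved in opposite directions with full-length and H373R CTCF. In 15 genes both forms differed from EV auxin by edgeR's test with opposite signs, and the direct test between FL and H373R also passed; of these, 3 are members of the function lists named by the rule and Efhc2 was chosen after its values were seen. Efhc2, an EF-hand protein gene on the X chromosome, stood at 8.09, 11.8 and 9.70 CPM in EV untreated, 9.92 and 8.47 in EV auxin, 22.9, 23.5 and 26.3 in FL and 3.74, 3.92 and 3.35 in H373R. Its log2 change against EV auxin was 1.41 with FL and -1.32 with H373R, and H373R lay -2.73 from FL (adjusted p = 2.94e-08). Dlx2, the forebrain homeobox gene, changed by -1.06 with FL and 0.46 with H373R (5.98, 5.09 and 5.85 CPM), a difference of 1.53 (adjusted p = 7.47e-06). Itga9, an integrin subunit, changed by 0.68 and -0.48, a difference of -1.17 (adjusted p = 1.29e-05), from an EV auxin level of 4.11 and 4.57 CPM. Spry4 changed by 0.51 and -0.15, a difference of -0.65 (adjusted p = 3.32e-07). The FL and H373R comparisons share the EV auxin pair.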

How the results depend on the processing

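The counts of genes called, restored and outside both EV groups were 2169, 584 and 1198 at an adjusted p under 0.01, and 395, 130 and 133 where every fold had to be at least 2-fold. Leaving out 1 EV or FL library at a time gave 1879 to 5800 calls, 488 to 1823 restored genes and 1171 to 3376 genes outside both groups. These counts were lowest each time without EV auxin replicate 2 and highest without EV untreated replicate 1. Removing GC and length trends gave 2064 restored genes. With these exceptions, the 3 counts stayed within 1.5 times of those reported under the scalings, filters, tools and TPM settings tried. DESeq2 called 3566 genes, RLE scaling 4033 (2013 higher, 2020 lower) and the libraries compared alone 4969. Over the named genes and all settings, 8076 of 8747 values kept their direction and their side of the threshold, 530 lost the call, 140 gained it and 1 reversed: Sparc, at -0.00 on counts, was 0.16 with chromosome medians removed, where the alternative subtracts the median of its chromosome.

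With the replicate number as a block 3978 genes were called. Same-numbered EV auxin and FL libraries did not deviate together (r = -0.072 and -0.0215). For EV untreated and FL, r was 0.282, 0.119 and 0.0957 for replicates 1, 2 and 3, and each library correlated best with its own number there, a hint from the data and not the design. Since r was not above 0.1 in every pair and the labels tie the numbers to no shared source, the numbers were not taken to pair the samples. Of the lists, the sign of the median depended on the setting for cell cycle, Wnt, LIF, retinoic acid, Polycomb, DNA methylation, axon guidance, G-quadruplex helicase, ribosome biogenesis, aryl hydrocarbon receptor, fatty acid synthesis, integrated stress response and NRF2 genes, and no direction is given for them. Gene length and GC content had correlations of -0.083 and 0.083 with the log2 change across 16242 genes, which are not independent replicates. The limit of depth is the pair of EV auxin libraries and the low counts of the protocadherins there.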

Other observations

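Contractile and SRF-dependent genes, which encode the actin cytoskeleton and its regulators, were among the other lists with more rises than falls. In FL against EV auxin 13 of 42 rose (31%, against 11.1% of all tested genes) and 4 fell. The median log2 change was 0.11, and the 13 were 9 and 10 without EV auxin replicates 1 and 2. Acta2, smooth muscle actin, stood at 9.22, 8.27 and 8.52 CPM in EV untreated, 6.73 and 6.10 in EV auxin and 17.9, 15.6 and 14.7 in FL (1.33 ± 0.11, adjusted p = 1.5e-06), and Tagln, transgelin, went from 13.7 and 13.3 to 27.2, 27.8 and 25.6 CPM (0.99 ± 0.09). Fibroblast markers moved with them, as given above, and their part in this was not tested. T, the primitive streak factor Brachyury, rose from 1.20 and 0.955 to 3.72, 2.43 and 3.62 CPM (1.65 ± 0.27, adjusted p = 0.000559).

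Of 20 tested genes of the retinoic acid list, 4 were higher (20%) and 3 lower (15%) in FL, and 13 were not called. Over all tested genes the shares were 11.1% higher and 13.4% lower. The 3 genes given here are examples. Aldh1a2, which makes retinoic acid, stood at 2.80, 3.38 and 3.97 CPM in EV untreated, 6.22 and 6.31 in EV auxin and 2.53, 3.11 and 3.31 in FL (-1.08 ± 0.16, adjusted p = 0.000294). Cyp26a1, which degrades it, went from 0.798 and 0.747 to 1.86, 1.67 and 2.75 CPM (1.46 ± 0.26, adjusted p = 0.000925), and Tgm2, a transglutaminase induced by it, from 35.5 and 37.6 to 66.9, 59.6 and 63.1 (0.79 ± 0.07, adjusted p = 1.56e-06). Among guidance genes the semaphorin receptor Nrp2 returned from 99.1 and 94.8 CPM in EV auxin to 60.3, 58.7 and 62.4, against 55.3, 54.8 and 56.7 in EV untreated (-0.68 ± 0.06, adjusted p = 1.56e-06). In the Wnt pathway its feedback inhibitors moved apart: Nkd1 fell from 19.16 and 19.3 to 13.1, 12.2 and 12.03 CPM (-0.63 ± 0.08, adjusted p = 0.000103), while Nkd2 rose from 0.456 and 0.291 to 1.19, 1.90 and 1.94, still under the 8.59, 9.20 and 9.14 of EV untreated.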
